A study of Mus musculus with 11 samples.

Results

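The prohormone processing enzymes and granins described here are 10 genes: the convertases *Pcsk1* and *Pcsk2*, the trimming and amidating enzymes *Cpe* and *Pam*, the inhibitor *Pcsk1n* and the chaperone *Scg5*, and the granins *Chga*, *Chgb*, *Scg2* and *Vgf*. They were taken by name, as genes of known function in the secretory granule. They are 10 of the 34728 genes kept from the deposited table, and all 10 were among the 11251 genes tested, for which 3 or more of the 11 libraries had to reach an FPKM of 1. FPKM is a fragment count scaled to the length of the transcript and to the fragments mapped in the library, so that levels of different genes can be set side by side.

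Peptide hormones are made as longer precursors that are cut and trimmed inside the secretory granule. In the β-cell, proinsulin is cut by the serine proteases PC1/3 (*Pcsk1*) and PC2 (*Pcsk2*), and carboxypeptidase E (*Cpe*) then removes the basic residues that the cuts leave behind. In the α-cell, PC2 makes glucagon from proglucagon. The granins are acidic proteins that aggregate in the granule, help to form it, and are themselves cut into peptides, which makes them general markers of endocrine cells.

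The study asked how the loss of Raptor, the defining subunit of the nutrient-sensing kinase complex mTORC1, alters β-cell identity, and whether normal blood glucose restores it. RNA was measured in GFP+ cells sorted from dispersed islets of mice aged 8 weeks, on a C57BL/6 x 129SV background. There were 3 libraries from WT mice (*RIP-Cre*, *Raptor*+/+, *Rosa26*GFP), 4 from diabetic βRapKOGFP mice (*RIP-Cre*, *Raptor*-/-, *Rosa26*GFP, without insulin pellet) and 4 from euglycemic βRapKOGFP mice, which had the same alleles and carried an insulin pellet for 4 weeks. All groups thus carried Cre under the rat insulin promoter and the GFP reporter, which stays on in any cell in which Cre was once active. The number of mice behind each library is not given in the sources used here, so p-values measure the spread between these libraries, which may in part be technical. The table gives no fragment totals, and the step size of low values corresponded to 9497089 to 16642829 fragments per library.

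The deleted gene, *Rptor*, had an FPKM of 0.948, 1.36 and 1.79 in WT replicates 1 to 3. It was 0.937, 0.831, 0.507 and 0.485 in diabetic replicates 1 to 4 and 0.423, 0.481, 0.623 and 0.438 in euglycemic replicates 1 to 4. All 8 mutant libraries lay below the 3 WT libraries, with diabetic replicate 1 close to WT replicate 1. Of the labelled cell type, all 9 β-cell markers were detected in each group, and they summed to between 116978 and 206367 FPKM, mostly from the hormone genes *Ins1*, *Ins2* and *Iapp*. Of the other β-cell markers, the glucose transporter *Slc2a2* fell in both mutant groups, by 2.06 and 1.79 on the log2 scale in diabetic and euglycemic against WT (limma adjusted p = 0.00254 and 0.00712), and the median of the 9 was −0.51 and −0.44. The libraries also held RNA typical of other cells. The hormones *Gcg*, *Sst*, *Ppy* and *Pyy*, made by α-, δ- and PP-cells, summed to 3234 to 4310 FPKM in WT, 14816 to 39122 in diabetic and 20574 to 48986 in euglycemic libraries. Markers of acinar cells, which make the digestive enzymes, summed to 2.90 to 28.9 FPKM in WT but to between 652 and 3034 in 5 of the 8 mutant libraries, and to 13.9 to 15.1 in the other 3 (diabetic replicate 4 and euglycemic replicates 2 and 3). Markers of endothelial cells summed to 9.78 to 49.5 FPKM in diabetic libraries and to at most 2.49 in the others, with *Cdh5*, *Kdr* and *Eng* at 0 throughout WT. Markers of duct cells summed to 58.1 to 71.6 FPKM in WT, 57.3 to 86.3 in diabetic and 95.8 to 131 in euglycemic libraries. Most of this sum was *Krt7*, at −0.18 and 0.37 on the log2 scale in diabetic and euglycemic against WT (limma adjusted p = 0.8018 and 0.4239). *Spp1* rose in both mutant groups (limma adjusted p = 0.0327 and 0.0149). *Krt19* was at most 0.853 FPKM in WT, 2.54 to 6.85 in diabetic and 5.37 to 16.5 in euglycemic libraries. It reached the filter of 1 FPKM through the mutants, so no p-value is given for it. In WT, *Sox9* and *Cftr* averaged 0.12 and 0.0092 FPKM. Immune markers summed to at most 89.9 FPKM and did not move together. The B-cell gene *Cd79a* was 8.20 to 20.1 FPKM in WT, at most 0.561 in diabetic and at most 1.10 in euglycemic libraries. It reached the filter of 1 FPKM through WT, so no p-value is given for it. On the log2 scale, *Lyz2* and *Cd74* were at 2.52 and 1.53 in diabetic and 0.41 and 1.19 in euglycemic against WT (limma adjusted p of 0.3645 to 0.8845). *Ptprc* was at 0 throughout WT and euglycemic libraries, and the T-cell gene *Cd3e* at 0 in all. Stromal markers summed to 0.183 to 8.19 FPKM in diabetic libraries and to at most 0.113 in the others. The genes of this report are expressed in other endocrine cells too. In bulk RNA of sorted cells, fewer cells of a type and less RNA per cell cannot be told apart.

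**Figure D1:**
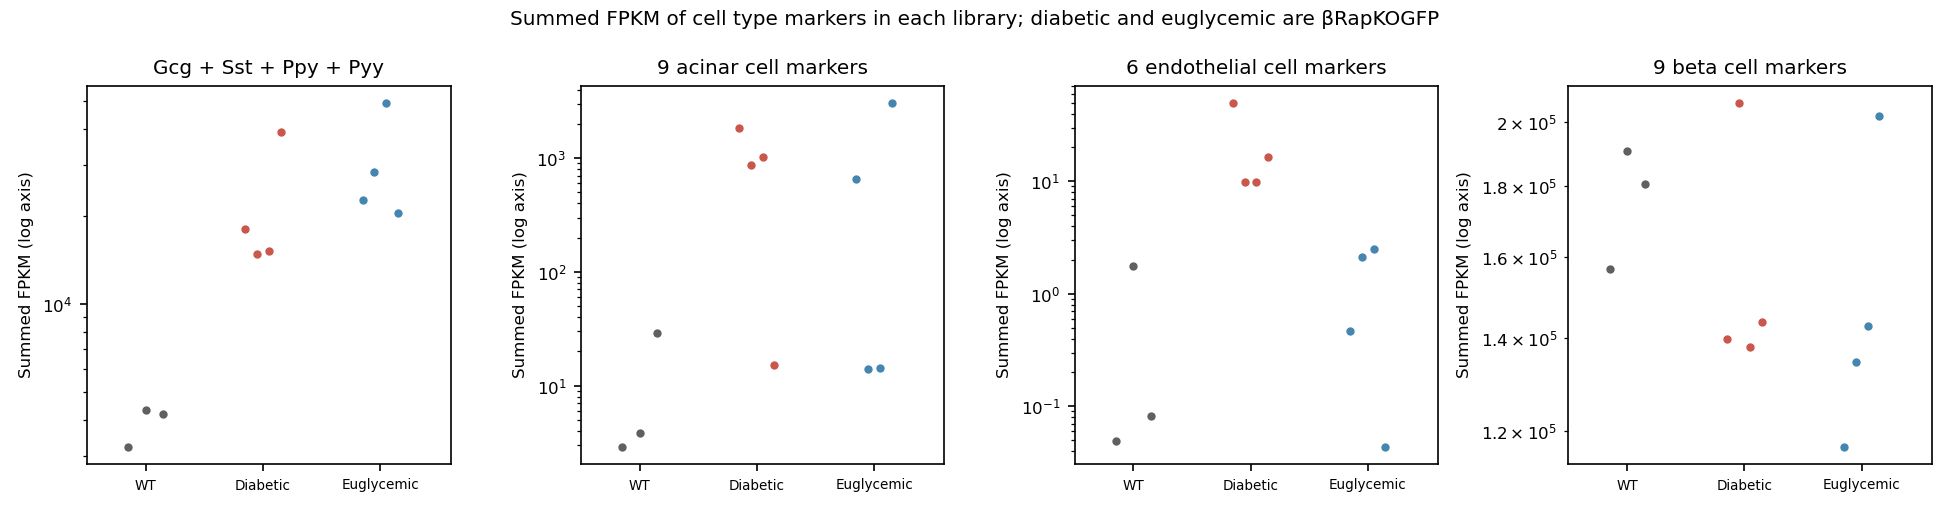
Summed FPKM of cell type markers in each library, on log axes, with 1 point per library and the groups WT, diabetic and euglycemic βRapKOGFP on the x axis. The 4 islet hormones of non-β-cells reach at most 4310 in WT and at least 14816 in the mutants, while the acinar sum splits each mutant group into libraries of at most 15.1 and libraries of at least 652 FPKM.

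In WT cells the members spanned more than 3 orders of magnitude. *Chga* was the 4th most abundant of all symbols, at 9737 ± 1755 FPKM (SD, n = 3), and *Cpe* the 5th, at 3086 ± 818 (SD, n = 3). They were followed by *Scg2* at 1209 ± 169, *Pcsk1n* at 719 ± 58.1, *Scg5* at 638 ± 197, *Chgb* at 598 ± 61.4, *Pcsk2* at 393 ± 18.5, *Pcsk1* at 152 ± 8.39, *Pam* at 32.4 ± 8.48 and *Vgf* at 3.90 ± 1.61 FPKM (all SD, n = 3). Among neighbours in this order, the libraries of *Pcsk1n* and *Scg5* and those of *Scg5* and *Chgb* overlapped, while every other pair was separate. The mutants kept *Chga* in first place and *Pcsk1*, *Pam* and *Vgf* in the last 3, and in both mutant groups the values of *Scg2* overlapped those of *Cpe*, which they did not in WT. Together the 10 genes made up 3.55 to 4.66% of all FPKM in WT, 2.74 to 3.98% in diabetic and 2.49 to 4.68% in euglycemic libraries.

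**Figure D2:**
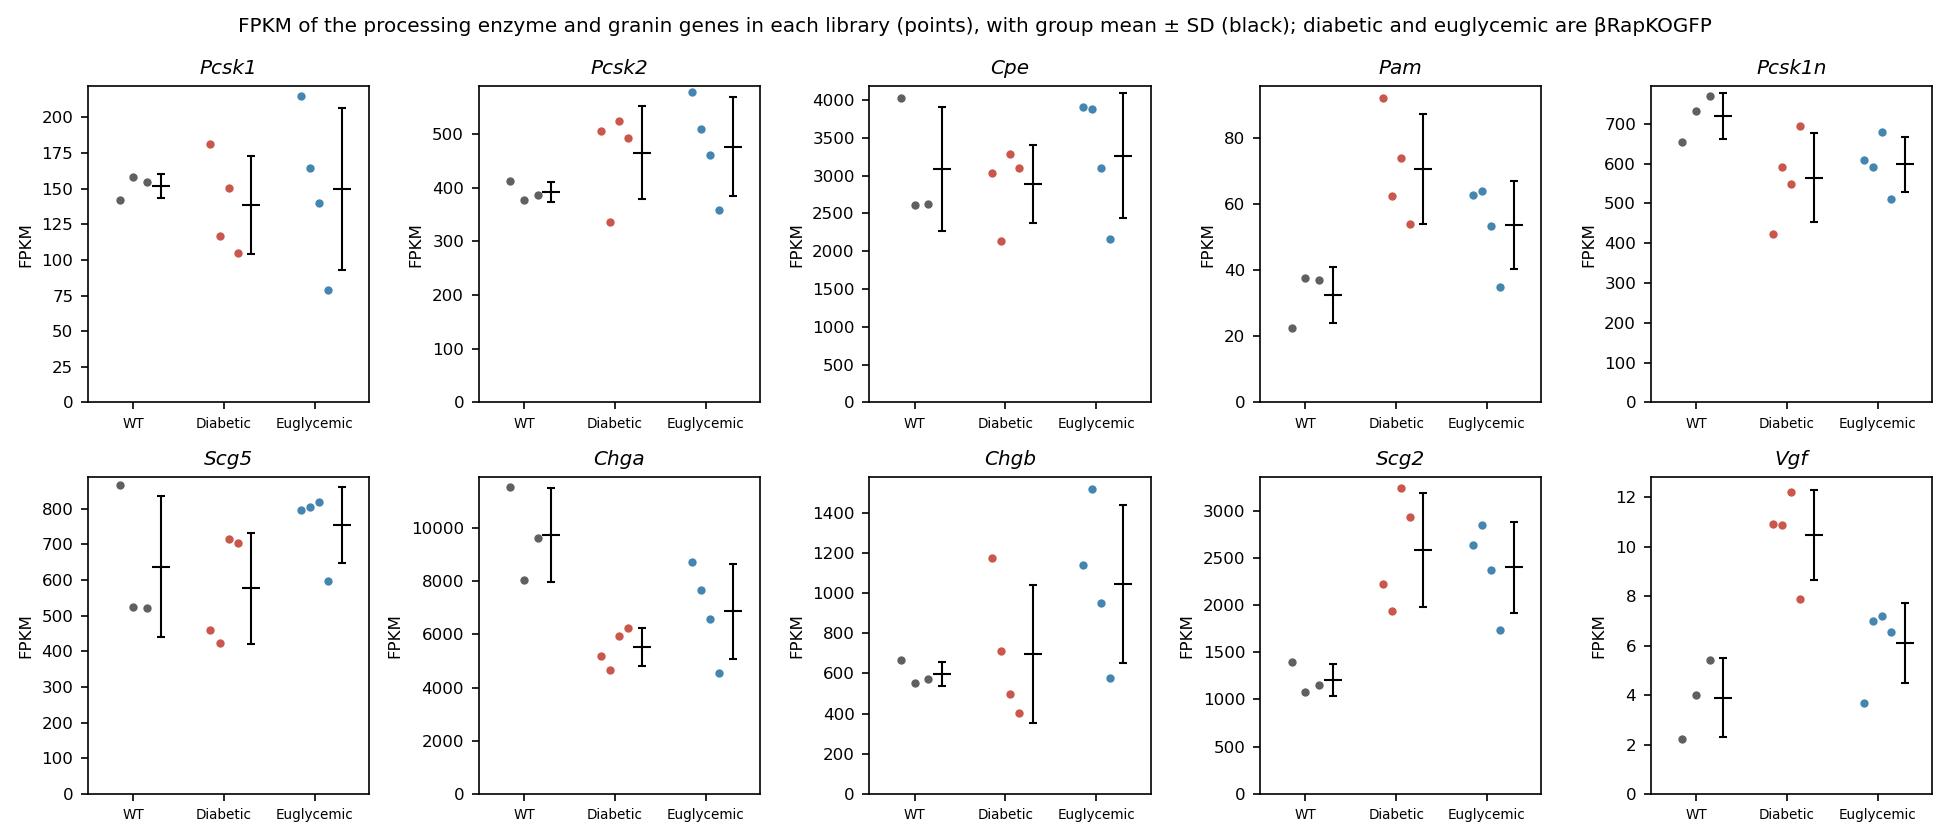
FPKM of each of the 10 genes in each library, with 1 point per library and the group mean ± SD beside the points; the x axis gives the groups WT (n = 3), diabetic (n = 4) and euglycemic (n = 4) βRapKOGFP, and each y axis starts at 0. Diabetic libraries lie above all WT libraries for *Pam*, *Scg2* and *Vgf* and below them for *Chga*.

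Diabetic libraries, which combine the loss of Raptor with high blood glucose, were first compared with WT using limma on log2(FPKM + 1), and a gene passed where its adjusted p (Benjamini-Hochberg over all 11251 genes) did not exceed 0.05 and its change reached 1.5-fold. In diabetic βRapKOGFP cells, *Vgf* rose, with 2.69 times the WT mean FPKM, and the other 9 genes did not pass the test. The call of *Vgf* was lost in 17 of 26 alternatives, including leaving out any 1 of the WT or diabetic libraries. *Pam* and *Scg2* had 2.18 and 2.14 times the WT mean FPKM without passing, and *Chga* had 0.566 times the WT mean. The count of 1 of 10 members stands beside 0.969% of all genes tested (109 genes, 53 higher and 56 lower, a split that was 62 and 35 after rescaling to TPM and 98 and 52 after rescaling without islet hormone genes). Before adjustment, 4 of the 10 members had p of at most 0.05 with a 1.5-fold change, 3 higher and 1 lower, beside 8.26% of all genes. The same 4 were the members whose diabetic and WT libraries did not overlap, which held for 13.5% of all genes. The median log2 difference was 0.01 over the members and 0.01 over all genes tested.

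In euglycemic βRapKOGFP cells, 0 of the 10 members passed against WT, beside 0.551% of all genes (62 genes). Before adjustment 2 members, *Pam* and *Scg2*, had p of at most 0.05 with a 1.5-fold change, beside 9.92% of all genes, and only *Scg2* had libraries that did not overlap with WT, beside 10.9% of all genes. The median log2 difference of the members was 0.27, beside −0.01 over all genes. Between diabetic and euglycemic cells, which share the deletion and differ in the insulin pellet and with it in blood glucose, 0 of 10 members passed limma's test, beside 0.00889% of all genes (1 gene). *Vgf* alone reached 1.5-fold at an unadjusted p of at most 0.05, beside 12.0% of all genes, and *Vgf* alone had libraries that did not overlap, beside 14.3% of all genes. These shares of the members in the last comparison are no higher than those of all genes. The comparisons of both mutant groups with WT share the 3 WT libraries.

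**Figure D3:**
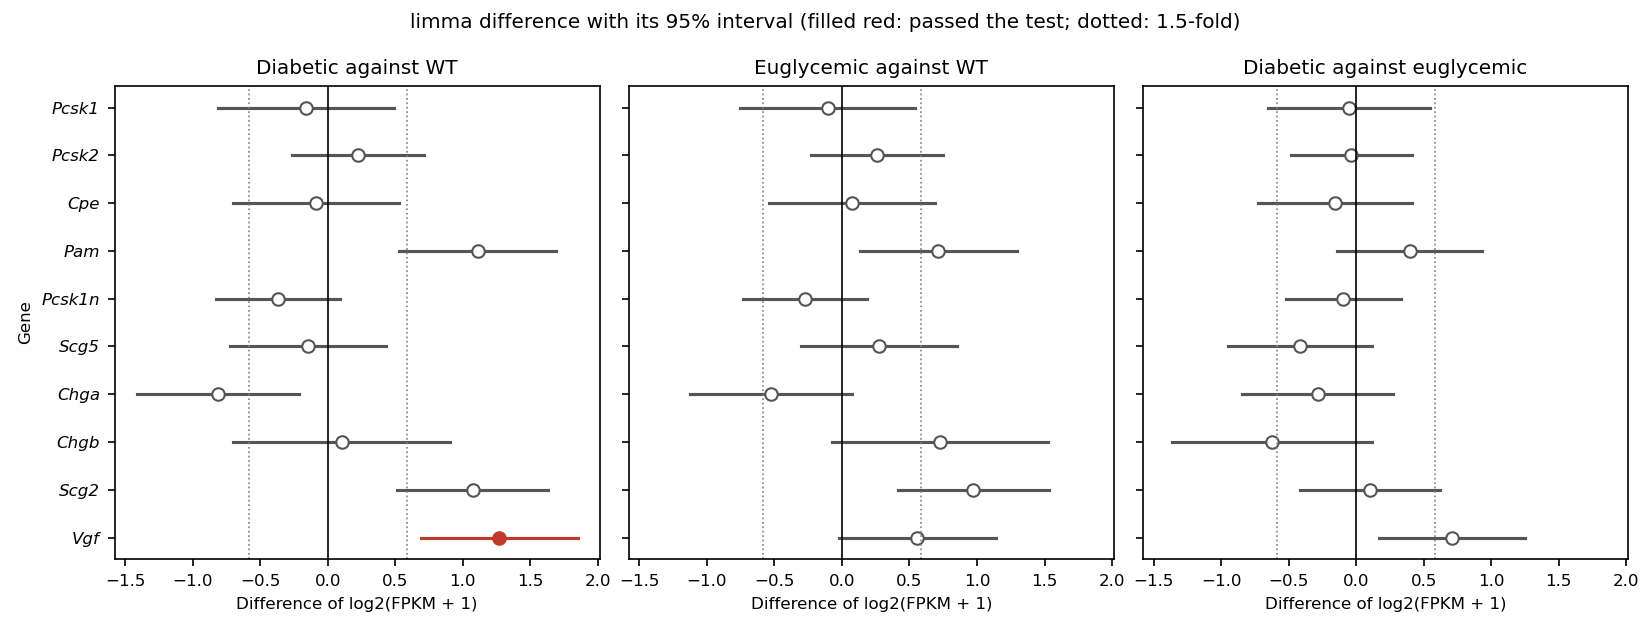
Difference of log2(FPKM + 1) between groups for each gene, from limma, with its 95% interval as a line; panels show diabetic against WT, euglycemic against WT and diabetic against euglycemic. The only filled point, *Vgf* in diabetic against WT, passed the test, and the dotted lines mark 1.5-fold.

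*Pcsk1* (ENSMUSG00000021587, chr13:75089826-75134861, GRCm38, plus strand) encodes PC1/3, the protease that makes the first cut of proinsulin. Its FPKM was 142, 158 and 155 in WT. It was 182, 117, 150 and 105 in diabetic and 215, 165, 140 and 78.9 in euglycemic libraries. The mutant libraries lay on both sides of WT, and the spread in euglycemic libraries was wide. The log2 difference was −0.16 in diabetic against WT (95% interval −0.81 to 0.49, limma adjusted p = 0.884), −0.11 in euglycemic against WT (−0.76 to 0.54) and −0.06 in diabetic against euglycemic (−0.66 to 0.55).

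*Pcsk2* (ENSMUSG00000027419, chr2:143546156-143816285, plus strand) encodes PC2. Its FPKM was 413, 377 and 387 in WT. It was 506, 337, 524 and 493 in diabetic and 577, 510, 460 and 358 in euglycemic libraries. In each mutant group 3 of 4 libraries lay above all WT libraries and 1 lay below them all. In limma, the log2 difference was 0.22 in diabetic against WT (95% interval −0.26 to 0.71, limma adjusted p = 0.764) and 0.26 in euglycemic against WT (−0.23 to 0.75, limma adjusted p = 0.630). The intervals of both convertases thus reach past 1.5-fold in 1 direction or both, except for *Pcsk2* in diabetic against euglycemic (−0.49 to 0.42). The antisense gene *Pcsk2os1* overlaps 3.29% of the exonic bases of *Pcsk2*, and whether counting used strand is not given in the sources used here.

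The balance of the convertases was examined as the ratio of *Pcsk1* to *Pcsk2* FPKM within a library, which no scaling of libraries can move. WT libraries had 0.388 ± 0.0388 (SD, n = 3), diabetic libraries 0.302 ± 0.0670 (SD, n = 4) and euglycemic libraries 0.305 ± 0.0635 (SD, n = 4). On the log2 scale the difference from WT was −0.38 in diabetic cells (exact permutation test, two-sided, p = 0.171, adjusted p = 0.514 over 9 ratio comparisons) and −0.37 in euglycemic cells (exact p = 0.114, adjusted p = 0.514). These differences were within the spread between libraries, and they were −0.23 without diabetic replicate 4 and −0.22 without euglycemic replicate 4. The smallest p that 4 libraries against 3 allow is 0.0286 before adjustment, so a ratio adjusted over 9 comparisons could pass only if several reached it.

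*Cpe* (ENSMUSG00000037852, chr8:64592542-64693054, minus strand), the carboxypeptidase, had 2609 to 4030 FPKM in WT, 2135 to 3284 in diabetic and 2158 to 3903 in euglycemic libraries. All 3 groups overlapped, and WT replicate 1, at 4030, stood apart from the other 2 WT libraries, at 2609 and 2619. Its log2 difference was −0.08 in diabetic against WT (95% interval −0.70 to 0.53) and 0.07 in euglycemic against WT (−0.54 to 0.69), and its sign in both depended on which libraries and scaling were used.

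*Pam* (ENSMUSG00000026335, chr1:97795114-98095646, minus strand) encodes the copper-dependent enzyme that converts a C-terminal glycine into an amide, the last step in making peptides such as amylin and pancreatic polypeptide. Its FPKM was 22.6, 37.6 and 37.0 in WT. It was 92.4, 62.5, 74.1 and 54.0 in diabetic and 62.9, 64.0, 53.5 and 35.1 in euglycemic libraries. All 4 diabetic libraries and 3 of 4 euglycemic libraries lay above the highest WT library, and euglycemic replicate 4 fell among the WT values. The fitted log2 difference was 1.11 in diabetic against WT (standard error 0.27, unadjusted p = 0.00116, limma adjusted p = 0.0792) and 0.71 in euglycemic against WT (standard error 0.27, unadjusted p = 0.0196, limma adjusted p = 0.266). Between the mutant groups it was 0.40 (95% interval −0.14 to 0.93). Without euglycemic replicate 4, which enters the diabetic comparison only through the shared estimate of spread, *Pam* passed in diabetic against WT (limma adjusted p = 0.0318), and so did *Scg2* (limma adjusted p = 0.0362). Over the 26 alternatives the difference in diabetic cells was 0.75 to 1.26 and passed in 4.

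The 4 genes fixed for the supply of copper and electrons to this enzyme, *Atp7a*, *Slc31a1*, *Atox1* and *Cyb561*, were all tested and none passed in any of the 3 comparisons by limma's adjusted p. Before adjustment, 0 passed against WT in either mutant group, and between the mutant groups the copper pump *Atp7a* was at 0.77 and the copper chaperone *Atox1* at −0.72 on the log2 scale (diabetic minus euglycemic, limma adjusted p = 0.164 and 0.136).

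*Pcsk1n* (ENSMUSG00000039278, chrX:7919822-7924410, plus strand) encodes proSAAS, an inhibitor of PC1/3. It ranged from 656 to 769 FPKM in WT, 424 to 693 in diabetic and 511 to 679 in euglycemic libraries. In each mutant group 3 of 4 libraries lay below all WT libraries. The log2 difference was −0.37 in diabetic against WT (95% interval −0.83 to 0.09, limma adjusted p = 0.539) and −0.27 in euglycemic against WT (−0.73 to 0.19, limma adjusted p = 0.588). *Eras* on the other strand overlaps 6.16% of its exonic bases. The ratio of *Pcsk1n* to its target *Pcsk1* averaged 4.74 ± 0.196 in WT (SD, n = 3), against 4.42 ± 1.84 in diabetic (SD, n = 4) and 4.44 ± 1.59 in euglycemic libraries (SD, n = 4). The means lay close together and the libraries of the mutants spread over 2.33 to 6.61, against 4.61 to 4.96 in WT. The exact permutation test gave p = 0.714, 0.686 and 1.0 for diabetic against WT, euglycemic against WT and diabetic against euglycemic, with an adjusted p of 1.0 in each.

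*Scg5* (ENSMUSG00000023236, chr2:113776362-113829121, minus strand) encodes 7B2, the chaperone that proPC2 needs to become active. Its FPKM was 866, 525 and 522 in WT, so that WT replicate 1 again stood above the other 2. It ranged from 425 to 716 in diabetic libraries and was 797, 805, 818 and 597 in euglycemic libraries. In limma, the log2 difference was −0.14 in diabetic against WT (95% interval −0.72 to 0.44), 0.27 in euglycemic against WT (−0.30 to 0.85) and −0.42 in diabetic against euglycemic (−0.95 to 0.12), and none passed. Relative to *Pcsk2*, its client, *Scg5* stood at 1.61 ± 0.419 in WT (SD, n = 3), against 1.24 ± 0.232 in diabetic (SD, n = 4) and 1.60 ± 0.167 in euglycemic libraries (SD, n = 4). The difference between the mutant groups was −0.38 on the log2 scale (exact permutation p = 0.0571, adjusted p = 0.514 over 9 comparisons), and it was −0.24 without diabetic replicate 1.

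**Figure D4:**
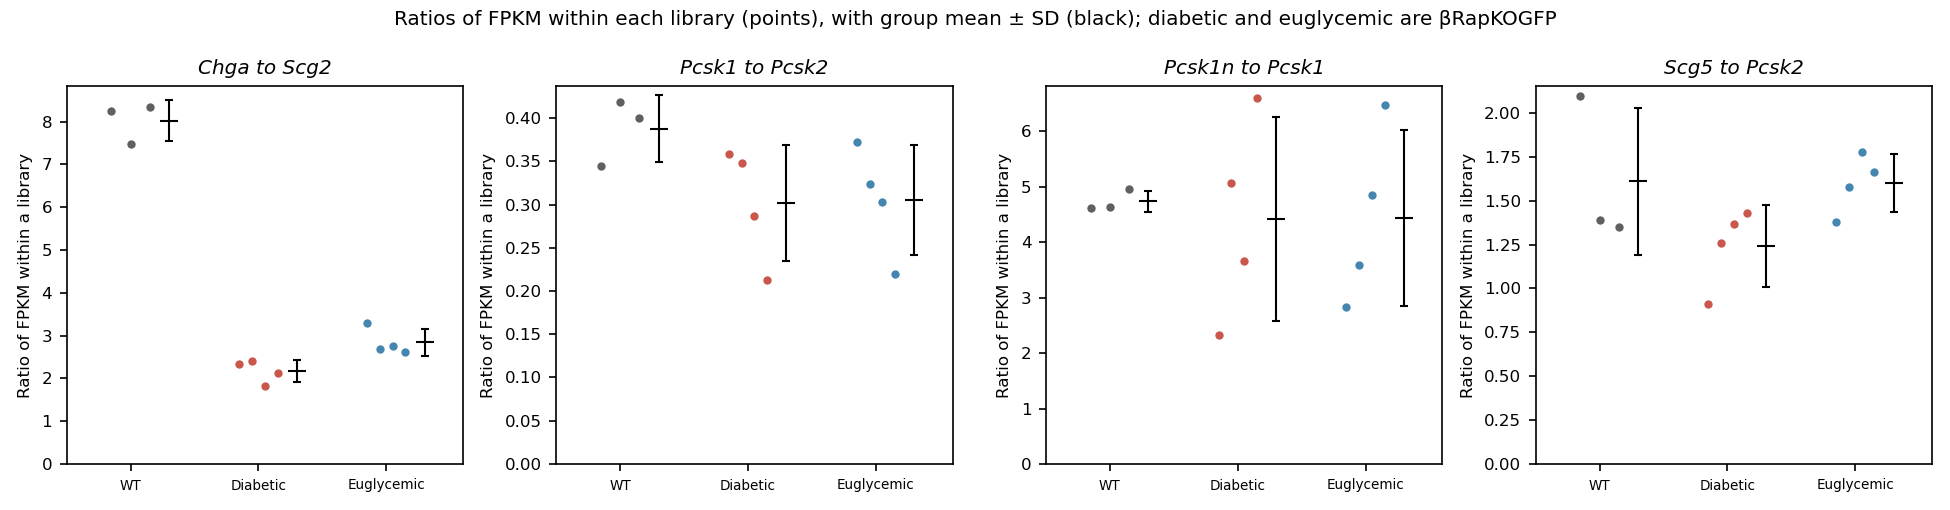
Ratios of FPKM within each library, with 1 point per library and the group mean ± SD beside the points; each y axis starts at 0 and the x axis gives WT (n = 3), diabetic (n = 4) and euglycemic (n = 4) βRapKOGFP. The ratio of *Chga* to *Scg2* separates all 3 groups, from 7.48 and above in WT to 2.41 and below in diabetic libraries, while the other 3 ratios overlap between groups.

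Of the 4 granins, 1 passed the test in diabetic against WT, higher (*Vgf*), beside 0.969% of all genes, and their log2 differences ran from −0.81 to 1.27. Promoters of several of these genes are known for a cyclic AMP response element (CRE), the site through which cyclic AMP and calcium signals act on transcription. RefSeq promoter windows of GRCm38.p6, from 250 bases before to 50 after the start site, were held for 8 of the 10 members. None was held for *Cpe* and *Vgf*, whose promoters were not searched. The full element, TGACGTCA, lay in 3 of these (*Pcsk1*, *Chgb* and *Scg2*) and in 1.79% of all 32851 windows. Its core, TGACGT on either strand, lay in 5 of the 8 (the same 3, *Chga* and *Scg5*) and in 7.51% of all windows. The 30 bases around the first match are shown for these 5 genes because they hold the only motif searched here, and beyond the capitals they differ. Each is 5′ to 3′ along the gene, with the matched bases in capitals.
Scg2: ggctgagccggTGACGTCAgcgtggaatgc
Chgb: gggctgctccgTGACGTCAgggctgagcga
Pcsk1: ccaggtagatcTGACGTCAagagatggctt
Chga: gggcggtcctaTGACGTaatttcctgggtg
Scg5: aaggaggtaaaTGACGTtcataggggtcga
They lie at chr1:79440076-79440105 (*Scg2*, minus strand), chr2:132781559-132781588 (*Chgb*), chr13:75089768-75089797 (*Pcsk1*), chr12:102554886-102554915 (*Chga*) and chr2:113829248-113829277 (*Scg5*, minus strand). The first matched base is 68, 72, 78, 44 and 175 bases before the RefSeq start site, in that order. The *Scg2* and *Chgb* matches lie in an exon of the GENCODE annotation, which lets transcripts of these genes start further upstream, and the other 3 do not. A match of letters is not evidence of binding, and no binding was measured here.

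*Chga* (ENSMUSG00000021194, chr12:102554969-102565028, plus strand) encodes chromogranin A, the most abundant granin of these cells. Its FPKM was 11545, 8039 and 9628 in WT. It was 5193, 4667, 5936 and 6254 in diabetic and 8718, 7668, 6563 and 4534 in euglycemic libraries. All diabetic libraries lay below the lowest WT library, and in euglycemic libraries 3 of 4 did, with euglycemic replicate 1 among the WT values. The fitted log2 difference was −0.81 in diabetic against WT (standard error 0.28, unadjusted p = 0.0117, limma adjusted p = 0.246) and −0.53 in euglycemic against WT (standard error 0.28, limma adjusted p = 0.419). It kept its sign over 26 alternatives, from −1.08 to −0.57 in diabetic cells, and passed only when p was left unadjusted.

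*Scg2* (ENSMUSG00000050711, chr1:79434669-79440120, minus strand) encodes secretogranin II, the precursor of secretoneurin. Its FPKM was 1399, 1075 and 1154 in WT. It was 2225, 1939, 3240 and 2928 in diabetic and 2640, 2850, 2373 and 1730 in euglycemic libraries. All 8 mutant libraries lay above the highest WT library. The log2 difference was 1.07 in diabetic against WT (standard error 0.26, unadjusted p = 0.00116, limma adjusted p = 0.0792) and 0.97 in euglycemic against WT (standard error 0.26, unadjusted p = 0.00243, limma adjusted p = 0.143). Neither passed, although in diabetic against WT *Scg2* did after rescaling by the median of ratios (limma adjusted p = 0.0364), where *Vgf* did not (limma adjusted p = 0.0555). Between the mutant groups the difference was 0.10 (95% interval −0.42 to 0.62). Without WT replicate 1, *Scg2* passed in euglycemic against WT (1.08, limma adjusted p = 0.0483). With the libraries rescaled to the same sum without islet hormone genes it passed in both, at 1.21 and 0.89 (limma adjusted p = 0.00590 and 0.0323).

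The opposite positions of *Chga* and *Scg2* were seen after their values were known and are given as a description, with no test. Within a library, the ratio of *Chga* to *Scg2* FPKM was 8.25, 7.48 and 8.34 in WT. It was 2.33, 2.41, 1.83 and 2.14 in diabetic and 3.30, 2.69, 2.77 and 2.62 in euglycemic libraries. The 3 groups did not overlap, with means of 8.03 ± 0.475 in WT (SD, n = 3), 2.18 ± 0.257 in diabetic (SD, n = 4) and 2.84 ± 0.311 in euglycemic libraries (SD, n = 4). *Chga* on its own spread from 4534 to 8718 FPKM within the euglycemic group, where the ratio spread from 2.62 to 3.30. Diabetic replicate 4 and euglycemic replicates 2 and 3, whose acinar markers summed to at most 15.1 FPKM, had ratios of 2.14, 2.69 and 2.77, against 1.83 to 3.30 in the other mutant libraries. The summed hormones of other islet cells were higher in every mutant library than in every WT library, and their part in the ratio was not tested.

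*Chgb* (ENSMUSG00000027350, chr2:132781278-132795079, plus strand) encodes chromogranin B. Its FPKM was 668, 552 and 574 in WT. It was 1174, 712, 497 and 403 in diabetic and 1141, 1518, 952 and 575 in euglycemic libraries. The diabetic libraries lay on both sides of WT, and 3 of 4 euglycemic libraries lay above it. In limma, the log2 difference was 0.10 in diabetic against WT (95% interval −0.70 to 0.91), 0.73 in euglycemic against WT (−0.08 to 1.53, limma adjusted p = 0.406) and −0.62 in diabetic against euglycemic (−1.37 to 0.12, limma adjusted p = 0.315). It had the widest intervals of the 10 genes.

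*Vgf* (ENSMUSG00000037428, chr5:137026392-137033351, plus strand) encodes a granin-like precursor of secreted peptides and was the least abundant member, with about 91 fragments in the library where it was lowest. Its FPKM was 2.23, 4.02 and 5.44 in WT. It was 10.9, 10.9, 12.2 and 7.90 in diabetic and 3.70, 7.0, 7.20 and 6.54 in euglycemic libraries. Every diabetic library lay above every WT and every euglycemic library, and euglycemic replicate 1 lay within WT while the other 3 lay above it. *Vgf* rose in diabetic against WT, with a log2 difference of 1.27 (standard error 0.27, unadjusted p = 0.000397, limma adjusted p = 0.0449), which is 2.41-fold on the scale of FPKM + 1. It was 0.56 in euglycemic against WT (95% interval −0.02 to 1.14, limma adjusted p = 0.379) and 0.71 in diabetic against euglycemic (standard error 0.25, unadjusted p = 0.0136, limma adjusted p = 0.162). This adjusted p is close to the threshold. Leaving out any library except euglycemic replicate 1 or 4 lost it (9 of 11), with a limma adjusted p of 0.0329 to 0.162 over the 11. It was also lost with the covariates and library subset described below. The direction held in all 26 (0.92 to 1.49).

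Values of other cell types moved with these results. The sum of *Gcg*, *Sst*, *Ppy* and *Pyy* was higher in every mutant library than in every WT library. With that sum as a covariate in limma, an alternative added after the data were seen, the difference in diabetic against WT was 1.21 for *Vgf*, 1.10 for *Pam*, 0.74 for *Scg2* and −1.08 for *Chga*, each with an adjusted p of 0.983. With the acinar sum as a covariate it was 1.17, 1.09, 1.36 and −0.57 (adjusted p of 0.119 to 0.659). In the 6 libraries with an acinar sum below 50 FPKM, which leave 1 diabetic and 2 euglycemic libraries, it was 0.92, 0.75, 1.28 and −0.62 (adjusted p of 0.422 to 0.836, with the lone diabetic library assumed to vary like the others). The 4 genes kept their direction in these fits. None passed, *Vgf* included (adjusted p = 0.244 with the acinar covariate). The hormone sum separates all WT from all mutant libraries, so that covariate and the group cannot be told apart, and with 1 diabetic library the last fit has little power. Summed markers of endothelial and of stromal cells were higher in each diabetic library than in any other library, as was *Vgf*, and their part in its value was not tested.

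The lists of related genes are given beside the share of all genes that passed (0.969% in diabetic against WT, 0.551% in euglycemic against WT and 0.00889% between the mutant groups). Of 14 other proprotein convertases and peptide-processing enzymes, 12 were tested and 0 passed by limma in any comparison. At unadjusted p with a 1.5-fold change, *Cpd*, a carboxypeptidase of the trans-Golgi network, was at 0.88 in diabetic against WT (limma adjusted p = 0.259). In euglycemic against WT, *Pcsk4* and *Pcsk6* were at −0.63 and −0.60 (adjusted p = 0.273 and 0.240). Between the mutant groups *Cpd* was at 1.08, *Furin* at 0.77 and *Ctsl* at −0.88 (adjusted p = 0.123, 0.185 and 0.123). The list medians were 0.04, −0.01 and 0.03, beside 0.01, −0.01 and 0.01 over all genes.

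Among the precursors that such enzymes act on, those that passed were hormones of other islet cells. Of 15 islet prohormones and neuropeptide precursors, 12 were tested. *Ppy*, the precursor of pancreatic polypeptide, and *Pyy*, that of peptide YY, passed in diabetic against WT, both higher, at 2.94 and 2.41 (limma adjusted p = 0.0177 and 0.0103). *Gcg* (proglucagon) and *Sst* (somatostatin) were at 2.6 and 2.0 there without passing (limma adjusted p = 0.0658 and 0.0504). In euglycemic against WT 4 passed, all higher, with *Ppy* at 3.18, *Gcg* at 3.07, *Pyy* at 2.98 and *Sst* at 2.55 (limma adjusted p = 0.0149, 0.0389, 0.00347 and 0.0199). Precursors known from the β-cell did not pass: *Ins1* was at −0.51 and −0.65, *Ins2* at 0.14 and −0.40 and *Iapp* at 0.11 and 0.52 in diabetic and in euglycemic against WT. *Ucn3*, the precursor of urocortin 3, was at −0.89 in diabetic against WT (unadjusted p = 0.0445, limma adjusted p = 0.407) and −0.25 in euglycemic against WT. Also past unadjusted p with a 1.5-fold change were *Cck* (cholecystokinin) at 1.79 in diabetic and *Tac1* (tachykinin 1) at 0.98 in euglycemic against WT (limma adjusted p = 0.309 and 0.304). Both were near the floor. *Cck* was 0 FPKM throughout WT and 0.235 to 8.13 in diabetic libraries. *Tac1* was at most 0.349 FPKM in WT and 0 to 2.93 in euglycemic libraries. Both reached the filter of 1 FPKM through mutant libraries only, and their log2 differences depend on the 1 added to FPKM. The list medians were 0.23 and 0.69 against WT and −0.45 between the mutant groups, where 0 passed adjusted or unadjusted.

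Of 8 other granule matrix and membrane proteins, all tested, only *Slc30a8*, the zinc transporter of the insulin granule, passed, lower in both mutant groups. Its FPKM was 642 to 712 in WT, 166 to 251 in diabetic and 231 to 339 in euglycemic libraries. The groups of mutants did not overlap with WT, and the log2 difference was −1.78 in diabetic and −1.31 in euglycemic against WT (limma adjusted p = 0.00270 and 0.0195). *Nucb2*, the precursor of nesfatin-1, was at 0.91 in euglycemic against WT (unadjusted p = 0.00823, limma adjusted p = 0.202). The medians of this list were 0.10 and 0.09. Of 7 genes of dense-core granule biogenesis, 0 passed by limma's adjusted p in any comparison. *Vamp4*, a SNARE protein of maturing granules, was at 0.71 in euglycemic against WT and −0.69 in diabetic against euglycemic (limma adjusted p = 0.178 and 0.133), and it was the only gene of this list past unadjusted p with a 1.5-fold change. The medians of this list were 0.03, 0.08 and −0.18.

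The 2 tested genes whose log2(FPKM + 1) over the 11 libraries was most like that of each member are given here. For *Vgf* they were *Rasgrf2* and *Dnajc18* (Pearson r of 0.947 and 0.909), for *Scg2* *Tmem37* and *Clu* (0.955 and 0.951), for *Pam* *Smoc1* and *Ssr1* (0.952 and 0.947), and for *Chga* *Vrk1* and *Fam174a* (0.977 and 0.966). For *Pcsk1* they were *Hnrnpm* and *St7l* (0.965 and 0.951), for *Pcsk2* *1810014B01Rik* and *Itfg1* (0.937 and 0.931), for *Cpe* *Polr2m* and *Phax* (0.968 and 0.967), for *Scg5* *Psmb4* and *Myl12b* (0.983 and 0.970) and for *Pcsk1n* *Pigt* and *Mllt10* (0.876 and 0.865). For *Chgb* they were *Gm31728* and *Glns-ps1* (0.914 and 0.882). These r values describe likeness over 11 libraries that share groups, depth and scaling, and they are the 2 highest among the genes tested for each member. None of these genes is a member, which with 10 members among 11251 genes tested does not show that members vary apart. With the group means removed, r between 2 members ran from −0.52 (*Chga* and *Vgf*) to 0.92 (*Cpe* and *Chga*).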

How the data were processed

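GFP+ β-cells were profiled by poly-A RNA-seq in 11 libraries. The authors' methods name Tophat and Cufflinks with mm10 for the deposited FPKM values, while the submitters' processing notes name HISAT2 2.0.4 and StringTie 1.3.0; the file does not say which made it. Replicates were not pooled. The columns used for the euglycemic group carry the abbreviation KI, which the labels do not define; they were matched to the insulin-treated samples as the group left once the WT and KO columns were assigned by title. Of 34745 entries, 34267 matched a symbol, and 17 entries were left out so that each symbol kept its entry with the highest mean. Coordinates are from GENCODE for GRCm38 and promoters from RefSeq.

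Differences were fitted with limma 3.58.1 in R 4.3.3 (lmFit, eBayes with trend) on log2(FPKM + 1), with all 11 libraries sharing 1 estimate of spread, over the genes that reached an FPKM of 1 in 3 or more libraries. Fold changes on this scale understate those of low genes. The fit was tested on simulated data. Ratios within a library used exact permutation tests, two-sided, on the log2 ratio of FPKM + 1, adjusted over 9 (Python 3.11.15, scipy 1.17.1). Depth was inferred from 4499 single-exon genes, where 92.7 to 97.3% of low values were whole steps within 0.02 of a fragment. Named were all 10 members, *Rptor*, the 2 genes most like each member, and, of the lists of related genes (not of markers), the genes that passed (at most 4 a list) or passed at unadjusted p with a 1.5-fold change; the last were named after their values were seen. Members and lists were chosen with earlier results of these data known. Alternatives were other filters, pseudocounts, scalings, weights, the replicate number as a block, and leaving out each library. Covariates for other cell types and a subset of libraries were added after the data were seen.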

Additional observations from a re-analysis of the deposited data

Results flagged for a closer look

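In the groups of 4 libraries, the gap of the highest and lowest library to its neighbour was compared with Dixon's 95% critical value for each of the 10 genes, in 20 groups in all, of which chance flags about 1 in 20. *Pcsk2* in diabetic replicate 2, at 337 FPKM against 493 to 524 in the other 3 diabetic libraries, had a gap of 0.831 of the group's range. *Scg5* in euglycemic replicate 4, at 597 FPKM against 797 to 818 in the others, had a gap of 0.906. Euglycemic replicate 4 was also the lowest of its group for *Pcsk1*, *Pcsk2*, *Cpe*, *Pam*, *Pcsk1n*, *Chga*, *Chgb* and *Scg2*. It had the highest acinar marker sum (3034 FPKM) and the fewest inferred fragments (9497089), and the part of either in these values was not tested. Between diabetic and euglycemic libraries 0 of the 10 members passed limma's adjusted p; *Vgf* did at unadjusted p (0.0136) and with library weights.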

How the results depend on the processing

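Both the calls and, for differences that did not pass, the direction depended on the settings. Of the 10, 1 passed in diabetic against WT (*Vgf*). It was 0 with no filter on low values, with a pseudocount of 0.1, with the replicate block, with the covariates for islet hormones or acinar markers and in the libraries with low acinar markers. It was 2 after rescaling without islet hormone genes (*Pam* and *Scg2*, not *Vgf*), 3 with library weights (*Pam*, *Scg2* and *Vgf*) and 4 at unadjusted p. It was also 1 after rescaling by the median of ratios, but there *Scg2* passed (limma adjusted p = 0.0364) and *Vgf* did not (limma adjusted p = 0.0555). With 1 library left out it ran from 0 (in 9 of the 11 cases) to 3 (without euglycemic replicate 4). In euglycemic against WT the count of 0 became 1 after rescaling without islet hormone genes, 3 with library weights and 2 at unadjusted p, and 0 to 1 with a library left out. Between the mutant groups it became 1 with library weights and 1 at unadjusted p, and stayed 0 with any library left out. Over all genes the counts of 109, 62 and 1 (diabetic against WT, euglycemic against WT, diabetic against euglycemic) were 551, 2287 and 1212 with library weights, 22, 13 and 0 with no filter, 21, 0 and 0 with the islet hormone covariate, 30, 28 and 0 with the acinar covariate, and 1, 4 and 0 in libraries with low acinar markers. With a library left out they ran from 26 to 210, 12 to 536 and 0 to 378, and both last values came without WT replicate 1. Between the mutant groups the median log2 difference of all genes, 0.01 as reported, was 0.12 after rescaling to TPM and 0.17 after rescaling without islet hormone genes. In diabetic against WT it was 0.01 as reported and 0.11 after the latter.

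Some differences that did not pass changed direction. In diabetic against WT, *Cpe* was 0.048 after rescaling without islet hormone genes, 0.14 with library weights, 0.19 with the acinar covariate and 0.037 in libraries with low acinar markers, and *Scg5* was 0.12 with library weights, 0.20 with the acinar covariate and 0.19 in libraries with low acinar markers. There *Pcsk1* was 0.037 with the replicate block and 0.0043 with the islet hormone covariate, which put *Pcsk2* at −0.0090, and *Chgb* was −0.56 in libraries with low acinar markers. In euglycemic against WT, *Cpe* was −0.0081 after rescaling without islet hormone genes and −0.14 with the islet hormone covariate, which put *Pcsk1* at 0.10, *Pcsk2* at −0.023 and *Scg5* at −0.25. *Pcsk1* was 0.081 there with library weights, 0.092 with the replicate block and 0.0019 in libraries with low acinar markers. Between the mutant groups, rescaling to TPM put *Pcsk1*, *Pcsk2* and *Pcsk1n* at 0.065, 0.085 and 0.024, and rescaling without islet hormone genes put them at 0.16, 0.18 and 0.12 and *Cpe* at 0.056. The islet hormone covariate put *Pcsk2* and *Pcsk1n* at 0.014 and 0.038, and libraries with low acinar markers put them at 0.024 and 0.13 and *Pam* at −0.11. With 1 library left out, the ranges that crossed 0 were −0.19 to 0.12 (*Cpe*), −0.27 to 0.10 (*Scg5*) and −0.19 to 0.32 (*Chgb*) in diabetic against WT, −0.31 to 0.17 (*Pcsk1*) and −0.033 to 0.28 (*Cpe*) in euglycemic against WT, and −0.33 to 0.15 (*Pcsk1*), −0.16 to 0.11 (*Pcsk2*), −0.20 to 0.034 (*Pcsk1n*) and −0.047 to 0.23 (*Scg2*) between the mutant groups. The log2 ratio of *Pcsk1* to *Pcsk2* between the mutant groups ran from −0.17 to 0.14. That of *Pcsk1n* to *Pcsk1* ran from −0.43 to 0.066, −0.37 to 0.028 and −0.27 to 0.23 in the 3 comparisons, and that of *Scg5* to *Pcsk2* in euglycemic against WT from −0.10 to 0.22. The cause was not tested.

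Deviations from the group means correlated at −0.13 on average over 10 pairs with the same replicate number (−0.37 to 0.21). Over 30 pairs with different numbers the average was 0.04. Deviations within a group sum to 0, which ties these averages to each other. They therefore cannot decide whether the replicate numbers pair the libraries. With the replicate block the counts over all genes were 45, 20 and 0, and the log2 ratio of *Scg5* to *Pcsk2* in euglycemic against WT was −0.0063. The estimate of about 91 fragments for *Vgf* in its lowest library rests on a depth that had to be inferred. The part of depth in the spread of its values was not tested.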
